A study of Mus musculus with 21 samples.

Results

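The RNA of 8 genes of embryonic mouse red blood cells was followed through 21 TRAP-seq libraries of forebrain and kidney at E14.5. They are the embryonic globins Hbb-y, Hbb-bh1 and Hba-x, the heme enzyme Alas2, the transcription factors Klf1 and Gata1, the erythropoietin receptor Epor and the membrane anion exchanger Slc4a1. They were chosen by name and make up 8 of the 23827 rows that each library lists. TRAP purifies RNA on ribosomes that carry a tagged ribosomal protein, here mCherry-Rpl10a expressed only in cells in which a Cre recombinase has been active, and the purified RNA is called the translatome. Total RNA of the same organ is called the transcriptome.

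There were 7 groups of 3 libraries. All embryos carried the Gt(ROSA)26Sor-mCherry-Rpl10a+/- allele, from a mouse line made with 1 targeted stem cell clone, together with 1 copy of a Cre driver. Brain transcriptome, brain translatome, kidney transcriptome and kidney translatome libraries came from Sox2Cre+/- embryos, in which the tag is on in all cells of the embryo proper. Brain Emx1-lineage libraries came from Emx1Cre+/- embryos, in which the tag is on in neural cells of the dorsal forebrain. Brain endothelial cell (EC) and kidney EC libraries came from Cdh5CreERT2+/- embryos, in which a tamoxifen-dependent Cre is driven by an endothelial promoter. The time of tamoxifen is not given in the sources used here. Several organs were pooled for each library, as the study's sample table lists them, and a transcriptome and a translatome library with the same number came from the same pool.

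The first red blood cells of the mouse arise in the yolk sac, circulate as nucleated cells and carry embryonic hemoglobin, built from the beta-like chains of Hbb-y and Hbb-bh1 and the alpha-like chain of Hba-x. They are joined from the fetal liver by definitive cells that carry adult globins. In both, Gata1 and Klf1 switch on globin and heme genes, Epor receives the survival signal of erythropoietin, Alas2 makes the first precursor of heme, and Slc4a1 (band 3) exchanges bicarbonate for chloride across the membrane. Forebrain and kidney do not form red blood cells at this stage, and the cells reach them in the blood. In these bulk samples fewer blood cells and less RNA per cell cannot be told apart.

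The GENCODE annotation of GRCm38, the build of the deposited files, places Hbb-y at chr7:103851749-103853216 and Hbb-bh1 at chr7:103841637-103843164, both on the minus strand of the beta-globin locus. Hba-x lies at chr11:32276400-32278116 on the plus strand, Alas2 at chrX:150547375-150570638 on the plus strand, Klf1 at chr8:84901928-84905291 on the plus strand, Gata1 at chrX:7959260-7978071 on the minus strand, Epor at chr9:21958897-21963506 on the minus strand and Slc4a1 at chr11:102348824-102366203 on the minus strand. None of the 50-base windows of the longest coding transcript of any of the 8 genes occurred unchanged in a GENCODE transcript of another gene. Copies with mismatches, or outside these transcripts, were not searched. Among the adult globins, 67.5% of the windows of Hba-a1 occurred in Hba-a2, and 65.8% of those of Hbb-bs in Hbb-bt. Alas2 overlaps Apex2 and Mir3620 on the opposite strand, and the library kit does not keep the strand, so reads from the overlap could not be assigned.

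Because Gata1 and Klf1 are themselves members, the 250 bases before the RefSeq start site (GRCm38) were searched on both strands for their motifs. These were GATAA, the core that Gata1 binds, and CACCC, the core that Klf1 binds. Promoters were at hand for 6 of the 8 genes, not for Hbb-bh1 and Slc4a1. GATAA was found in 5 of the 6 and in 22.6% of all 32851 promoters, CACCC in 6 of the 6 and in 52% of all, and both in 5 of the 6 and in 10.1% of all. Gata1 was the one without GATAA. The 30 bases around each GATAA match are shown on the strand of the gene, with GATAA or its reverse complement in capitals, to let the members be compared.
Hbb-y, chr7:103853352-103853381: atctaatgtgcaTTATCataaacacagtgt
Hba-x, chr11:32276481-32276510: gttgctggctctGATAAcaggctccaccct
Alas2, chrX:150547319-150547348: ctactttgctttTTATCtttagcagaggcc
Klf1, chr8:84901890-84901919: tttgcctgggtcTTATCagggaagacagcc
Epor, chr9:21963613-21963642: ggtggctgtagcTTATCtgtccccagcctg
The matches lie 162 bases before the start of Hbb-y, 107 before Hba-x, 86 before Alas2, 80 before Klf1 and 54 before Epor, counted from the RefSeq start to the first base of the match. GENCODE lists earlier starts for Hba-x, Alas2, Klf1 and Gata1, so these windows overlap the gene spans given above, that of Gata1 wholly, and every match of Hba-x and Gata1 and the CACCC matches of Alas2 lie inside these spans. The window of Hbb-y overlaps its gene by a few bases. The whole 250 bases are given for Hbb-y, the most abundant member, and for Epor, which went opposite ways in the EC libraries of the organs, with both motifs in capitals.
Hbb-y, chr7:103853208-103853457: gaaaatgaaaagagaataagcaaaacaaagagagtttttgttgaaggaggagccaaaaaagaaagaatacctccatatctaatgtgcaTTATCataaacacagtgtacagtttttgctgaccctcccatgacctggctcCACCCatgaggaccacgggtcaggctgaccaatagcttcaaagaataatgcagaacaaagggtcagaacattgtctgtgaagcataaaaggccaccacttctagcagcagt
Epor, chr9:21963577-21963826: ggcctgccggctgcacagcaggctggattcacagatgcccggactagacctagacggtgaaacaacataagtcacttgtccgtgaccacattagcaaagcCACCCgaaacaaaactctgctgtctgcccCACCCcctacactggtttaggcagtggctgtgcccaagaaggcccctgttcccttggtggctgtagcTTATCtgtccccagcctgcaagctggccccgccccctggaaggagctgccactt
A match describes the letters in this window and is not evidence of binding. The part of the motifs in the levels of the members was not tested.

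The reads listed for all rows of a library summed to 21760652 to 79231692 (median 43190754). These sums include repeated rows and are not counts of sequenced reads. Reads of the 8 genes made up 0.00311% to 0.0452% of the sum, and 63.6% to 87.9% of them were from Hbb-y. Marker genes differed between the groups: 10 endothelial markers summed to 2784 to 2879 RPKM in brain EC and to 12.7 to 15.2 in Emx1-lineage libraries, 6 neural markers to 1877 to 1956 RPKM in Emx1-lineage and to 0.625 to 0.776 in kidney EC libraries, and 6 kidney markers to 320 to 339 RPKM in the kidney transcriptome and to 1.65 to 1.69 in the Emx1-lineage. Markers of other cells of the organ were not absent from EC libraries, with 318 to 434 RPKM of the neural list in brain EC and 62.4 to 80.3 RPKM of the kidney list in kidney EC. RPKM, reads scaled by gene length and library size, were the authors' values and are used here for levels. Differences are log2 fold changes from edgeR's quasi-likelihood test on the deposited read counts, each with its standard error (SE), and a gene was called where the Benjamini-Hochberg adjusted p over all rows tested was under 0.001, the threshold of the study.

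Every member was detected in total RNA of both organs, at very different levels. Hbb-y stood highest, with 412 ± 134 RPKM in the kidney transcriptome and 272 ± 115 in the brain transcriptome (SD, n = 3). Hba-x followed with 68.9 ± 22.0 and 50.8 ± 15.5 RPKM, then Alas2 with 17.1 ± 1.93 and 12.5 ± 4.41. The other members were low in total RNA: Epor reached 3.96 RPKM in kidney, Slc4a1 2.78, Hbb-bh1 2.15, Klf1 0.445 and Gata1 0.279. The order of the group means was much alike for Hbb-y, Hba-x and Hbb-bh1: kidney transcriptome, brain transcriptome, brain Emx1-lineage, the Sox2Cre translatomes, brain EC and last kidney EC. For Hbb-y all neighbours in that order overlapped in their libraries except brain EC (82.0 to 105 RPKM) and kidney EC (33.7 to 41.9 RPKM). Alas2 and Slc4a1 shared the 2 highest places but not the rest, as kidney EC came next for both and the Emx1-lineage last. Epor followed neither order and was highest in the kidney translatome at 4.65 ± 0.280 RPKM, above every kidney transcriptome library, and lowest in the Emx1-lineage at 0.412 ± 0.0192 RPKM.

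**Figure D1:**
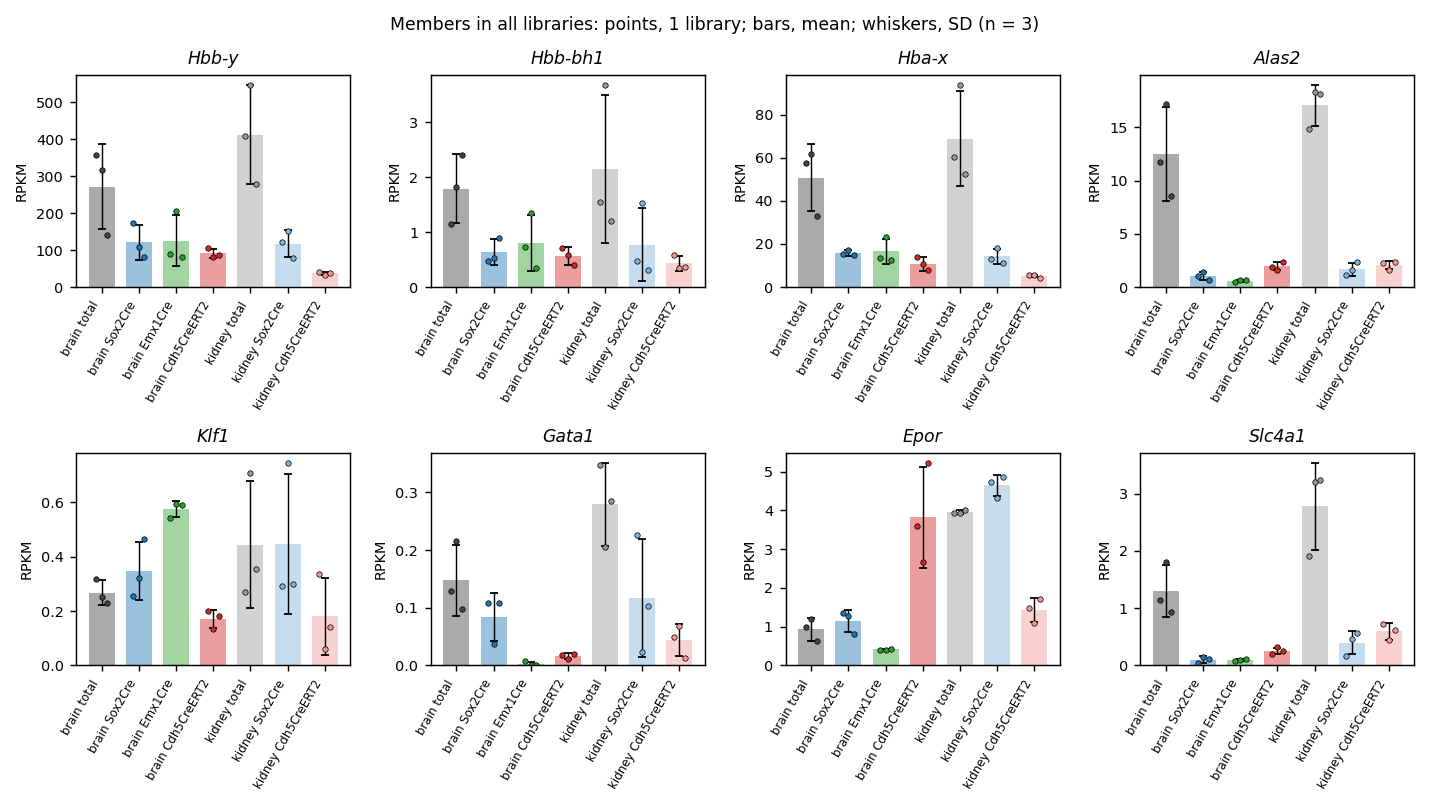
RPKM of each of the 8 genes in all 21 libraries, on linear axes from 0; points are single libraries, bars the mean and whiskers the SD of the 3 libraries of a group. Hbb-y, Hba-x, Alas2 and Slc4a1 were highest in total RNA of both organs, while Epor was highest in the kidney translatome (mean 4.65 RPKM) and Klf1 in the brain Emx1-lineage (mean 0.576 RPKM).

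Across the 21 libraries the member profiles of log2(RPKM + 1) closest to that of Hbb-y were those of the other 2 embryonic globins. Pairs of members without Hbb-y were not compared. Pearson's r between Hba-x and Hbb-y was 0.959, and that between Hbb-bh1 and Hbb-y 0.76. Against the mean profile of the other 7 members r was 0.887 for Hba-x, 0.852 for Hbb-y, 0.811 for Slc4a1, 0.808 for Alas2, 0.763 for Hbb-bh1 and 0.703 for Gata1, but 0.202 for Epor and 0.186 for Klf1. These values describe 21 points that share 7 groups and are not tests. Of 14552 other rows with a mean of at least 1 RPKM in a group, the 10 whose profile was most like the mean of the members were Mks1 (r = 0.948), Ankrd24 (0.946), Ell (0.941), Clcc1 (0.941), Slc7a3 (0.939), 5730408K05Rik (0.935), Xab2 (0.934), Glb1l (0.931), Ahcyl2 (0.93) and Ccdc157 (0.929). All 10 had their highest mean in the kidney transcriptome and the next highest in the brain transcriptome, as the mean of Hbb-y did.

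The first question was how the RNA of these genes in the precipitated ribosomes compared with total RNA of the same Sox2Cre pools. Hba-x, Alas2 and Slc4a1 were lower in the translatome in both organs and Hbb-y in kidney, whereas Hbb-bh1, Klf1, Gata1 and Epor were not called. The translatome level is that of the precipitate, and how much of it was on tagged ribosomes was not tested. Hbb-y and Hba-x had means of 126 and 16.6 RPKM in the Emx1-lineage precipitate, against 122 and 15.9 in the brain translatome. In brain 3 of the 8 genes were called lower and none higher, where of all 19446 rows tested 37.1% were called, 18.5% lower and 18.6% higher. In kidney 4 of 8 were called lower and none higher, against 30.7% of 19336 rows called, 15.8% lower and 14.9% higher. The median log2 fold change of the members was -1.32 in brain and -1.64 in kidney, against -0.01 and -0.03 over all rows tested.

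Hbb-y, the main embryonic beta-like globin, had 358, 316 and 141 RPKM in the 3 brain transcriptome libraries and 175, 109 and 82.0 in the 3 brain translatome libraries. Each translatome library was below the transcriptome library of its own pool, but the groups overlapped, and the change of -1.12 (SE 0.28, adjusted p = 0.0035) was not called. With the pool as a block the change was -1.10 (adjusted p = 4.9e-12), and without transcriptome replicate 3, the lowest of its group, it was -1.43 (adjusted p = 8.2e-08). In kidney the same block fit by edgeR gave Hba-x an adjusted p of 3.1e-245 and Slc4a1 one of 2.7e-125. Such values are too small for 3 pools, so p-values and calls of the block fits are given as descriptions throughout. Within the sequencing lane that held all 3 translatome libraries and 1 transcriptome library it was -1.53. Lane values for brain and kidney rest on such an arm of 1 library, assumed to vary like the others, and are given as descriptions. In kidney Hbb-y had 408, 548 and 280 RPKM in total RNA and 123, 152 and 77.9 in the translatome. These groups did not overlap, and Hbb-y fell by 1.81 on the log2 scale (SE 0.25, adjusted p = 0.00014), a 3.50-fold difference. Within the lane that held all 3 kidney transcriptome libraries and 1 translatome library the change was -2.40, no longer called (adjusted p = 0.0014).

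Hba-x, the embryonic alpha-like globin, was called in both organs. In brain it had 57.5, 61.8 and 33.0 RPKM in total RNA and 15.5, 17.4 and 14.8 in the translatome, with no overlap, and it fell by 1.65 (SE 0.18, adjusted p = 1.9e-06). In kidney it had 60.5, 93.9 and 52.3 RPKM in total RNA and 13.2, 18.1 and 11.3 in the translatome, and it fell by 2.28 (SE 0.23, adjusted p = 1.2e-05). Within the shared lanes the changes were -1.84 in brain and -2.60 in kidney. Hbb-bh1, the embryonic beta-like globin of the earliest cells, rested on few reads, between 4 and 91 a library. It had 1.15, 1.83 and 2.40 RPKM in brain total RNA and 0.466, 0.537 and 0.902 in the translatome, a change of -1.51 (SE 0.33, adjusted p = 0.0012). Its kidney change was -1.48 (SE 0.57, adjusted p = 0.054). Within the shared lanes the changes were -0.87 (adjusted p = 0.12) and -2.81 (adjusted p = 0.055). None of these passed, but with the pool as a block both did, at -1.45 (adjusted p = 1e-05) in brain and -1.49 (adjusted p = 7e-07) in kidney. Without brain translatome replicate 3 the brain change was -1.83 (adjusted p = 0.00066), and without brain transcriptome replicate 1 it was -1.74 (adjusted p = 0.00027).

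Alas2, the rate-limiting enzyme of heme synthesis in red blood cells, and Slc4a1 had the largest falls among the members in both organs. Alas2 had 11.7, 17.2 and 8.52 RPKM in brain total RNA and 1.08, 1.42 and 0.703 in the translatome. It fell by 3.54 in brain (SE 0.25, adjusted p = 2.8e-08), which is 11.6-fold, and only 0.756% of the 13231 rows with a mean of at least 1 RPKM had a lower fold change. In kidney it had 14.8, 18.3 and 18.1 RPKM in total RNA and 1.10, 1.63 and 2.31 in the translatome. It fell there by 3.36 (SE 0.21, adjusted p = 4.4e-07), which is 10.3-fold. Within the shared lanes the changes were -3.46 in brain and -2.88 in kidney.

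The Alas2 messenger carries an iron-responsive element, a hairpin in its first exon to which iron regulatory proteins bind when iron is short and then hold back translation. The site is shown because such elements act on translation, with the bulged C and the first 5 bases of the loop in capitals.
Alas2 iron-responsive element, chrX:150547458-150547483, plus strand: ttggttCgtcctCAGTGcagggcaac
The letters searched were a C, 5 bases, the loop CAGTGN and 5 bases that pair with the first 5, G-T pairs allowed. Of 20899 protein-coding genes with a 5′ leader in GENCODE, 31 (0.148%) held them there, and of the 8 members only Alas2. The ferritin genes Fth1 and Ftl1, whose messengers carry the classical element, were among the 31. In brain 26 of the 31 were tested, of which 10 were called lower and 4 higher in the translatome, with a median of -0.32, against 18.5% and 18.6% of all rows. In kidney 13 of 26 were called lower and 6 higher, with a median of -0.32, against 15.8% and 14.9%. Fth1 fell by 1.17 in brain (SE 0.06, adjusted p = 2e-09) and by 1.77 in kidney (SE 0.07, adjusted p = 3.7e-08), and Ftl1 by 1.44 (SE 0.06, adjusted p = 1.8e-10) and 1.74 (SE 0.07, adjusted p = 5.6e-08). The fall of Alas2 was larger than that of any other gene of the 31 that was tested in either organ. Fth1 and Ftl1 have pseudogene copies in the genome, so their counts are less certain. This list was made after the fold change of Alas2 was known, and the part of the element in it was not tested.

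Slc4a1, the anion exchanger of the red cell membrane, had 1.14, 1.82 and 0.940 RPKM in brain total RNA and 0.0385, 0.151 and 0.107 in the translatome, the latter from 8, 21 and 15 reads. It fell by 3.78 in brain (SE 0.34, adjusted p = 3.4e-07), which is 13.8-fold. In kidney it had 1.91, 3.20 and 3.23 RPKM in total RNA and 0.171, 0.456 and 0.568 in the translatome, with no overlap. It fell there by 2.81 (SE 0.34, adjusted p = 4.4e-05). Within the shared lane the brain change was -3.60, while the kidney change, against 1 translatome library, was -2.28 and not called (adjusted p = 0.0018).

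Klf1 and Gata1, the transcription factors, were the least abundant members and gave no call. Klf1 had 0.319, 0.254 and 0.229 RPKM in brain total RNA and 0.257, 0.320 and 0.464 in the translatome, a change of 0.38 (SE 0.30, adjusted p = 0.32). Its kidney change was 0.02 (SE 0.47, adjusted p = 0.98). Gata1 rested on 1 to 32 reads a library in these 4 groups, with changes of -0.74 (SE 0.48, adjusted p = 0.22) in brain and -1.23 (SE 0.54, adjusted p = 0.086) in kidney. Within the shared lanes the changes of Klf1 were 0.10 in brain and -0.55 in kidney, those of Gata1 -0.54 and -1.44, and none was called.

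Epor was the one member with more RPKM in the translatome than in total RNA in all 3 pools of both organs, though it was not called. It had 0.981, 1.19 and 0.620 RPKM in brain total RNA and 1.34, 1.27 and 0.814 in the translatome, a change of 0.33 (SE 0.24, adjusted p = 0.26). In kidney it had 3.92, 3.93 and 4.02 RPKM in total RNA and 4.74, 4.33 and 4.87 in the translatome, a change of 0.23 (SE 0.10, adjusted p = 0.082). Within the shared lanes the changes were 0.24 and 0.30. Epor is also made by cells other than red blood cells. The endothelial markers had a median of 0.51 in brain (5 of 10 called higher) and 0.38 in kidney (6 of 10 called higher). Of all rows 18.6% in brain and 14.9% in kidney were called higher. The other marker lists had positive medians too, with fewer calls. In brain they were 0.28 for macrophage, 0.40 for megakaryocyte, 0.03 for neural and 0.54 for kidney markers. In kidney they were 0.21, 0.18, 1.10 and 0.06. In the same order, 4 of 10, 1 of 7, 2 of 6 and 2 of 6 were called higher in brain. In kidney 0 of 10, 1 of 7, 0 of 6 and 1 of 6 were. The neural list in kidney and the kidney list in brain were low, at most 6.7 and 6.94 RPKM summed in the translatomes. The part of any of these cell types in the level of Epor was not tested.

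**Figure D2:**
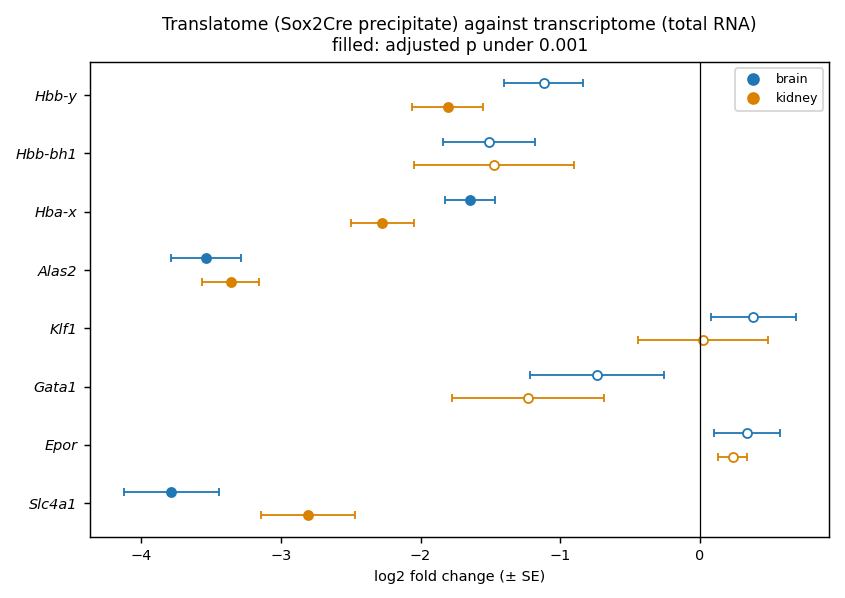
Log2 fold change of the translatome (Sox2Cre precipitate) against the transcriptome (total RNA) for the 8 genes in brain and kidney, with the SE as bars; filled points passed the adjusted p of 0.001. Alas2 (-3.54 and -3.36) and Slc4a1 (-3.78 and -2.81) lie far to the left of 0 in both organs, the globins between -1.12 and -2.28, and Klf1 and Epor at or right of 0.

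Whether these differences were of the same size in both organs was tested by the interaction of organ and RNA kind over the 12 Sox2Cre libraries. By edgeR none of the 8 genes was called, where 6.47% of 20108 rows were, 4.12% higher and 2.35% lower in kidney, and 0 of the 8 had an unadjusted p under 0.05. The kidney change was lower than the brain change by 0.67 (SE 0.47) for Hbb-y and by 0.61 (SE 0.33) for Hba-x, and Slc4a1 went the other way with 0.99 (SE 0.60). With the pool as a block, 2 genes passed, Hbb-y at -0.69 (adjusted p = 1.3e-06) and Hba-x at -0.62 (adjusted p = 0.00023). These values too are descriptions.

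A ratio of 2 members within a library is free of library scaling, and that of Alas2 to Hbb-y was lower in every translatome library than in any transcriptome library of the organ. In brain total RNA there were 30.5, 18.4 and 16.6 RPKM of Hbb-y for each RPKM of Alas2, and in the translatome 162, 76.4 and 117. The log2 ratio of Alas2 to Hbb-y was lower in the translatome by 2.43 in brain and by 1.60 in kidney, with no overlap of libraries in either organ (exact two-sided permutation test, p = 0.1 each, adjusted over the 8 comparisons 0.13). With 3 libraries against 3 the smallest p such a test can give is 0.1. The ratio of Slc4a1 to Hbb-y was lower in the translatome by 2.75 in brain, where libraries did not overlap (exact p = 0.1), and by 1.12 in kidney, where they did (exact p = 0.3). These 2 ratios were added after the values had been seen.

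The ratios between the globin chains differed less. Hba-x made up 16.0%, 19.4% and 23.0% of the summed RPKM of Hbb-y and Hbb-bh1 in brain total RNA and 8.86%, 15.9% and 17.8% in the translatome, a log2 difference of -0.50 (exact p = 0.2). In kidney it made up 14.8%, 17.0% and 18.6% in total RNA and 10.7%, 11.8% and 14.5% in the translatome, a difference of -0.45 without overlap (exact p = 0.1). Hbb-bh1 stood at 0.267% to 1.70% of Hbb-y over all 21 libraries, and its ratio differed by -0.37 in brain (exact p = 0.6) and 0.14 in kidney (exact p = 0.8). The share of embryonic among all beta globin RPKM was 50.2%, 37.9% and 32.5% in brain total RNA and 76.2%, 76.9% and 59.4% in the translatome, and 50.1%, 55.7% and 36.8% against 75.1%, 87.9% and 87.1% in kidney. The log2 share was higher in the translatome by 0.83 in both organs, without overlap (exact p = 0.1 each, adjusted 0.27). This last share depends on Hbb-b2, whose RPKM came from 533 reads in all libraries, and when computed from reads the difference was 0.01 in brain and 0.0089 in kidney. In brain transcriptome replicate 1, 61 reads of Hbb-b2 gave 355 RPKM, where 9497 reads of Hbb-y gave 358 RPKM. The percentages are therefore not a measure of embryonic against adult beta globin RNA.

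**Figure D3:**
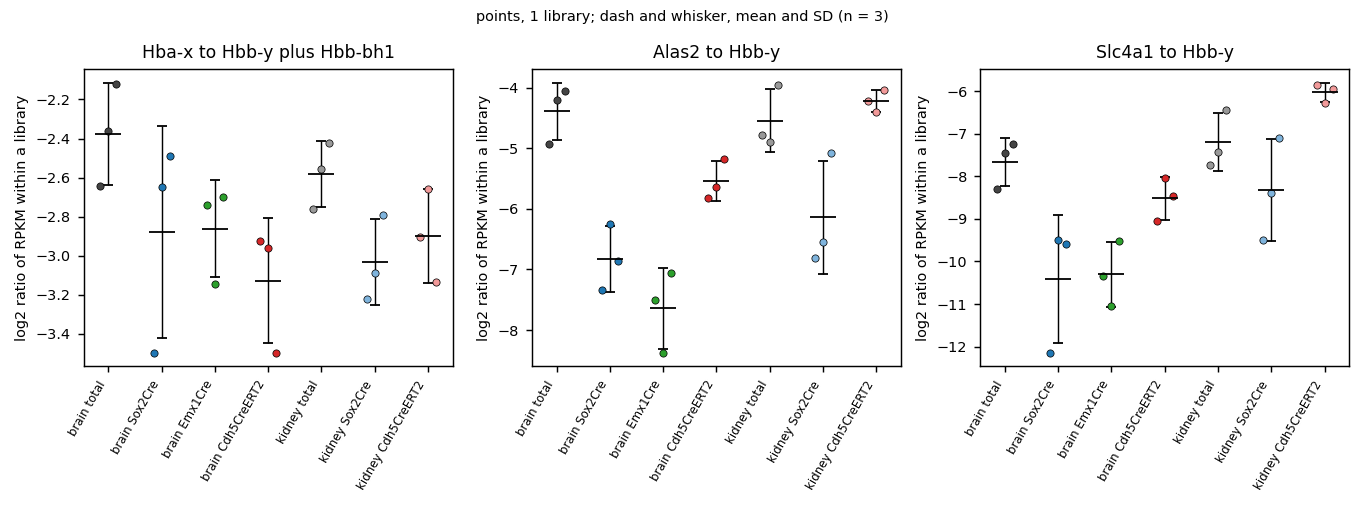
Log2 ratios of RPKM within each library for Hba-x to the beta-like chains, Alas2 to Hbb-y and Slc4a1 to Hbb-y; points are single libraries, the dash and whisker the mean and SD of 3. The ratio of Alas2 to Hbb-y was -4.39 in brain total RNA and -6.82 in the brain translatome, and in kidney EC (-4.22) it stood near that of total RNA.

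The second question was how much RNA of the 8 genes came with the ribosomes of a lineage that does not include red blood cells. In the brain Emx1-lineage no embryonic globin differed detectably from the whole brain translatome, while markers of other cell types outside the lineage were much lower. Of the 8 genes 1 was called lower and none higher, where of 19006 rows 22.1% were called, 12.8% lower and 9.2% higher, and the median of the members was 0.05. In the same comparison 10 of 10 endothelial markers (median -3.97), 10 of 10 macrophage markers (median -4.32) and 5 of 7 megakaryocyte markers (median -3.83) were called lower. The summed RPKM of the macrophage list was 2.53 to 3.17 against 56.2 to 62.8 in the brain translatome, and that of the megakaryocyte list 7.74 to 8.63 against 24.1 to 29.7, most of it from Gp1bb with 6.67 to 7.35 RPKM, while Gp6 had 0 reads. Each lineage group was sequenced in a lane of its own, so lane and group cannot be told apart, and the brain Emx1-lineage and brain EC were set against the same 3 brain translatome libraries.

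Hbb-y had 89.5, 206 and 82.5 RPKM in the Emx1-lineage libraries, within and above the range of the brain translatome, and its change was 0.07 (SE 0.29, adjusted p = 0.86). Replicate 2 held the most, and without it the change was -0.45. It was also below 0 without brain translatome replicate 2 (-0.0014) or 3 (-0.15). Hba-x had 13.5, 23.4 and 12.8 RPKM, a change of 0.09 (SE 0.18, adjusted p = 0.72), and without replicate 2 -0.21. Slc4a1 had 0.0692, 0.0969 and 0.112 RPKM, a change of 0.02 (SE 0.40, adjusted p = 0.98). Without Emx1-lineage replicate 2 or 3 or brain translatome replicate 1 it was -0.014, -0.18 and -0.47. In all 3 genes the groups overlapped, and the direction of the small differences rested on single libraries. Hbb-bh1 differed by 0.31 (SE 0.43, adjusted p = 0.58), and by -0.085 without Emx1-lineage replicate 2.

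Alas2 had 0.495, 0.619 and 0.620 RPKM, below all brain translatome libraries, and its change of -0.85 (SE 0.23, adjusted p = 0.0067) was not called. Without brain translatome replicate 3 it was -1.06 and called (adjusted p = 0.00066). Klf1 had 0.542, 0.596 and 0.591 RPKM, above all brain translatome libraries, a change of 0.81 (SE 0.25, adjusted p = 0.015). It was not called, and which cells its RNA came from was not tested. Gata1 was at 1, 0 and 0 reads against 9, 2 and 6 in the brain translatome. That is 1 of 163799006 listed reads against 17 of 107237936, a ratio of 0.0385. Its exact 95% interval, 0.000922 to 0.246, covers counting error only. Epor had 0.406, 0.396 and 0.433 RPKM and was called lower by 1.42 (SE 0.21, adjusted p = 5.6e-05), and without brain translatome replicate 1 by 1.28 (adjusted p = 0.0015).

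In brain EC Epor and Alas2 were higher than in the brain translatome, and no globin was called. Of the 8 genes 2 were called higher and none lower, against 46.2% of 19103 rows called, 24.8% higher and 21.4% lower. Epor had 3.59, 2.66 and 5.23 RPKM, and it rose by 2.02 (SE 0.25, adjusted p = 7.8e-06), which is 4.06-fold. Alas2 had 1.86, 1.65 and 2.39 RPKM, and it rose by 1.19 (SE 0.23, adjusted p = 0.00043). That call was lost without brain EC replicate 3 (1.01, adjusted p = 0.0023), without brain translatome replicate 1 (1.20, adjusted p = 0.0074) or 3 (0.97, adjusted p = 0.0014). Slc4a1 had 0.198, 0.314 and 0.245 RPKM, above all brain translatome libraries, with a change of 1.72 (SE 0.37, adjusted p = 0.0012) that passed without brain EC replicate 1 (1.87, adjusted p = 0.00098) or brain translatome replicate 2 (2.17, adjusted p = 0.00021).

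Hbb-y in brain EC had 105, 82.0 and 86.8 RPKM, a change of -0.13 (SE 0.20, adjusted p = 0.59), which was 0.23 without brain translatome replicate 1. Hba-x had 13.9, 10.6 and 7.72 RPKM, below all brain translatome libraries in RPKM, but its change after TMM scaling was -0.27 (SE 0.17, adjusted p = 0.2). Hbb-bh1 differed by 0.16 (SE 0.37, adjusted p = 0.72), and Klf1, with 0.20, 0.135 and 0.182 RPKM below all brain translatome libraries, by -0.68 (SE 0.34, adjusted p = 0.1). Gata1 was at 2, 1 and 2 reads, a ratio of 0.181 to the brain translatome (exact 95% interval 0.0523 to 0.512, counting error only). Endothelial markers rose in 10 of 10 (median 4.52), while 3 of 10 macrophage and 5 of 6 neural markers fell (medians -0.45 and -1.88). Scaling by read totals without globin rows, in place of TMM, moved the median of all rows over 1 RPKM by -0.30 here. The same scaling moved that median by -0.37 in kidney EC against the kidney translatome and by -0.22 in brain EC against the Emx1-lineage. In kidney against brain transcriptome the shift was 0.18. This scaling uses no TMM factors, and the globin rows it leaves out held few reads. They had 3073 to 4590 reads a library in brain EC and 1871 to 5394 in the brain translatome. Under this scaling the change of Hbb-bh1 in brain EC went from 0.16 to -0.13, and that of Alas2 from 1.19 to 0.89 (adjusted p = 0.0035).

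Kidney EC held less Hbb-y and Hba-x than the kidney translatome. Of the 8 genes 3 were called lower and none higher, against 31.7% of 18940 rows called, 15% lower and 16.7% higher. Hbb-y had 41.9, 33.7 and 38.4 RPKM, below all kidney translatome libraries, and fell by 1.27 (SE 0.19, adjusted p = 0.00018). Hba-x had 5.67, 5.40 and 4.42 RPKM and fell by 1.10 (SE 0.19, adjusted p = 0.0004). The call for Hba-x was lost without kidney EC replicate 1 or 3 and without kidney translatome replicate 1 or 2, with changes of -1.18, -1.01, -1.15 and -0.90. In this comparison 10 of 10 macrophage markers (median -2.16) and 6 of 6 kidney markers (median -1.97) also fell. Their part in the result was not tested.

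Alas2 and Slc4a1 did not follow the globins down in kidney EC. Alas2 had 2.25, 1.60 and 2.32 RPKM, a change of 0.65 (SE 0.26, adjusted p = 0.055), and Slc4a1 had 0.728, 0.436 and 0.620 RPKM, a change of 0.95 (SE 0.35, adjusted p = 0.04). Hbb-bh1 (-0.45, SE 0.59), Klf1 (-0.89, SE 0.58) and Gata1 (-1.09, SE 0.83) were not called, the last from 4, 4 and 1 reads. Without kidney translatome replicate 2 the change of Hbb-bh1 was 0.51. Relative to Hbb-y, Alas2 was higher in kidney EC than in the kidney translatome by 1.92 and Slc4a1 by 2.30 on the log2 scale, each without overlap (exact p = 0.1). In brain EC the same ratios were higher than in the brain translatome by 1.28 and 1.89, also without overlap (exact p = 0.1). The Emx1-lineage did not differ from the brain translatome in these ratios beyond the spread of its libraries, with -0.82 for Alas2 (exact p = 0.2) and 0.10 for Slc4a1 (exact p = 0.9).

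Epor went opposite ways in the EC libraries of the 2 organs. In kidney EC it had 1.49, 1.09 and 1.70 RPKM against 4.74, 4.33 and 4.87 in the kidney translatome, and it fell by 1.34 (SE 0.18, adjusted p = 6.6e-05). The kidney effect was below the brain effect by 3.38 (SE 0.34, adjusted p = 3.8e-07, interaction over 12 libraries), where of 19764 rows 25.1% were called, 16.5% in that direction and 8.6% in the other. For Hbb-y the kidney effect was lower by 1.17 (SE 0.33, adjusted p = 0.0078), and for Hba-x by 0.86 (SE 0.28, adjusted p = 0.02), neither of which passed. This interaction was added after the values had been seen.

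**Figure D4:**
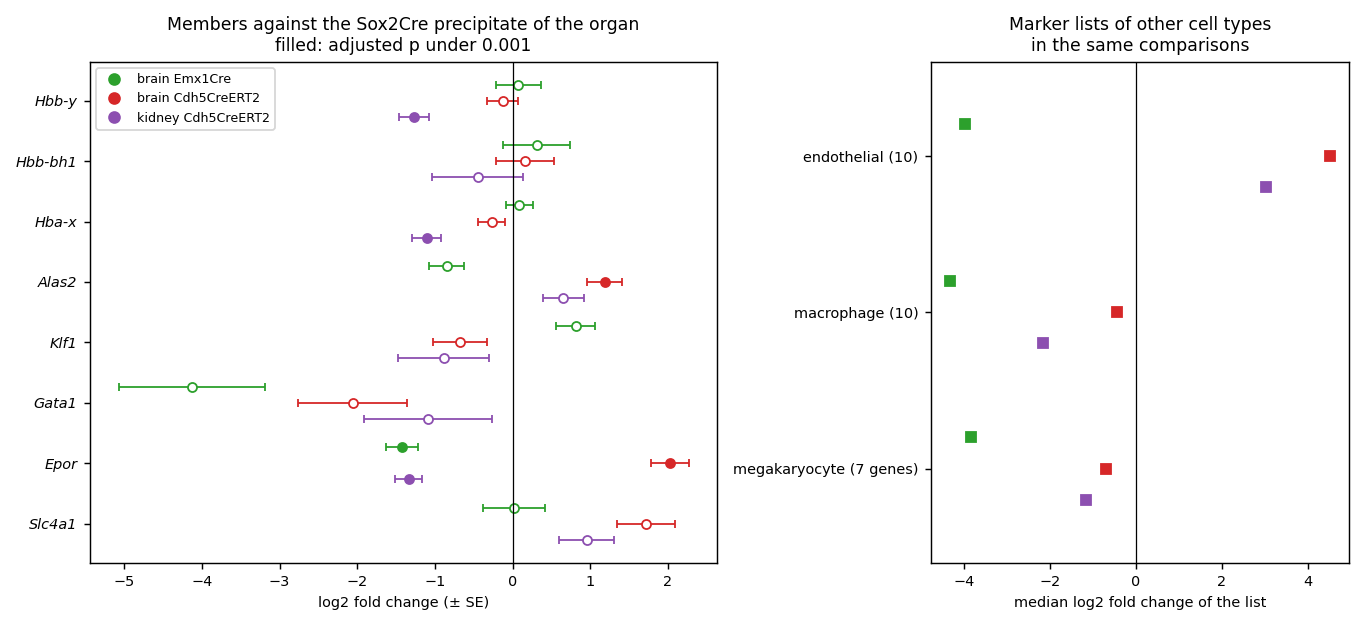
Left, log2 fold change (with SE) of the 8 genes in each lineage precipitate against the Sox2Cre precipitate of the same organ, with filled points past the adjusted p of 0.001; right, median log2 fold change of marker lists of other cell types in the same comparisons. In the Emx1-lineage Hbb-y and Hba-x lie near 0 while the 3 marker medians lie between -3.83 and -4.32; the point of Gata1 rests on 1 read.

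Set directly against the Emx1-lineage, with no shared control libraries, brain EC held 3 members at called higher levels and 1 at a called lower level, against 51.1% of 19143 rows called, 25.9% higher and 25.2% lower. Epor was higher by 3.42 (SE 0.24, adjusted p = 1e-07), Alas2 by 2.01 (SE 0.18, adjusted p = 9.5e-07) and Slc4a1 by 1.68 (SE 0.27, adjusted p = 0.00012). Klf1 was lower by 1.51 (SE 0.25, adjusted p = 0.00016), with 0.20, 0.135 and 0.182 RPKM against 0.542, 0.596 and 0.591. Hbb-y (-0.24, SE 0.27) and Hba-x (-0.38, SE 0.24) overlapped and were not called, and without Emx1-lineage replicate 2 the change of Hbb-y was 0.30.

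Between the organs, Epor was the one member called in total RNA. Kidney transcriptome libraries held 3.92 to 4.02 RPKM of Epor and brain transcriptome libraries 0.620 to 1.19, a rise of 1.90 (SE 0.19, adjusted p = 4.2e-06), against 53.5% of 19841 rows called, 26.3% higher and 27.2% lower. Hbb-y was higher in kidney by 0.42 (SE 0.31, adjusted p = 0.25), Hba-x by 0.26 (SE 0.24, adjusted p = 0.37) and Alas2 by 0.26 (SE 0.20, adjusted p = 0.26), all with overlap and none called. Without kidney transcriptome replicate 2 the change of Hba-x was -0.034. Hbb-bh1 (0.07, SE 0.40), Klf1 (0.55, SE 0.38) and Gata1 (0.73, SE 0.36) were not called either. Slc4a1 had no overlap, with 1.91, 3.20 and 3.23 RPKM in kidney against 1.14, 1.82 and 0.940 in brain, and a change of 0.89 (SE 0.24, adjusted p = 0.0071). It passed without kidney transcriptome replicate 1 (1.11, adjusted p = 0.00048) or brain transcriptome replicate 2 (1.22, adjusted p = 0.00089).

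Between the EC libraries of the 2 organs Hbb-y, Hba-x and Epor were lower in kidney. Of the 8 genes 3 were called lower in kidney EC than in brain EC and none higher, against 37% of 19238 rows called, 20.1% lower and 16.9% higher. Hbb-y was lower by 1.30 on the log2 scale (SE 0.11, adjusted p = 2.4e-06), Hba-x by 1.10 (SE 0.21, adjusted p = 0.00092) and Epor by 1.45 (SE 0.25, adjusted p = 0.00052). Hba-x lost the call without any 1 of kidney EC replicates 1, 2 and 3 or brain EC replicates 1 and 2 (-1.19, -1.13, -1.01, -0.87 and -1.12), and Epor without kidney EC replicate 1 or 2 or brain EC replicate 1 (-1.49, -1.30 and -1.50). Alas2 (0.02, SE 0.20), Hbb-bh1 (-0.41, SE 0.39), Klf1 (0.08, SE 0.52) and Gata1 (1.29, SE 0.82) were not called, and Slc4a1 was higher in kidney EC by 1.21 (SE 0.25, adjusted p = 0.0015), with no overlap, and passed without kidney EC replicate 2 (1.39, adjusted p = 0.00034). Macrophage markers were lower in kidney EC in 8 of 10 (median -1.46).

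Other genes of the red blood cell programme were taken from lists of later globins, heme and iron genes, transcription factors, erythropoietin signalling, membrane and skeleton proteins and late markers, 70 genes of which 67 had a row. These lists too were chosen with results known, and their counts are descriptions. In brain 15 of 65 tested were called lower (23.1%) and 12 higher (18.5%), against 18.5% and 18.6% of all rows, with a median of -0.10. In kidney 15 of 63 were called lower (23.8%) and 7 higher (11.1%), against 15.8% and 14.9%, with a median of -0.25. Many genes of these lists are also expressed by other cells of the organ.

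Hbb-b2, an adult beta globin, was called lower in both organs. It fell by 2.96 in brain (SE 0.32, adjusted p = 1.7e-06) and by 4.09 in kidney (SE 0.35, adjusted p = 4.2e-06), with 240 reads in 3 brain transcriptome libraries and 21 in 3 brain translatome libraries. In the membrane and skeleton list 6 of 17 genes were called lower in each organ and 2 in brain and 1 in kidney higher. The heme and iron list split: Slc25a37, the mitochondrial iron importer, fell by 1.86 in brain (SE 0.09, adjusted p = 8.6e-10) and Ppox, a late enzyme of heme synthesis, by 1.34 (SE 0.12, adjusted p = 4.1e-07), whereas Glrx5, needed for iron-sulfur clusters, rose by 1.37 (SE 0.06, adjusted p = 2e-10). Bpgm (1.00, SE 0.06, adjusted p = 5.9e-09) and Cd24a (0.99, SE 0.06, adjusted p = 7.7e-09) rose as well, and Cd24a stood at 840 RPKM in the brain translatome, where neural cells express it.

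Of the 11 genes of the transcription factor list 5 were called higher and 3 lower in brain EC, against 24.8% and 21.4% of all rows, and 6 higher and 2 lower in kidney EC, against 16.7% and 15%. Lyl1 rose by 3.80 in brain EC (SE 0.12, adjusted p = 8.6e-12) and by 2.64 in kidney EC (SE 0.10, adjusted p = 4.6e-09), and Tal1 by 2.87 (SE 0.09, adjusted p = 9.5e-10) and Lmo2 by 2.54 (SE 0.07, adjusted p = 6.5e-10) in kidney EC. These 3 are known to act in endothelial cells as well as in blood. Nfe2 and Myb fell in kidney EC by 1.72 (SE 0.23, adjusted p = 7.4e-05) and 1.37 (SE 0.15, adjusted p = 1.6e-05). In the Emx1-lineage Lyn (-2.94, SE 0.14, adjusted p = 3.8e-10), Car2 (-2.20, SE 0.11, adjusted p = 4.3e-10) and Lyl1 (-2.11, SE 0.18, adjusted p = 2e-07) were the most reduced of the lists among genes with at least 1 RPKM in a group.

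The adult alpha globins could not be followed, and of the adult beta globins only Hbb-b2, by few reads. Hba-a1 and Hba-a2 are listed at 0 reads in all 21 libraries, and Hbb-b1 at 1 read in all. How reads that match both copies of a pair were counted is not given in the sources used here. The amounts of adult alpha and adult beta globin RNA therefore cannot be read from these counts.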

How the data were processed

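Per the labels and the study's methods, libraries were made with the TruSeq RNA kit v2, which does not keep the strand. The authors aligned reads with RUM to GRCm38 (mm10 per the labels) and obtained, for each RefSeq gene, the deposited read counts and RPKM values with rpkmforgenes. In each library 623 rows repeat a symbol and accession, and the row with most reads was used. The 8 members and all gene lists were chosen with earlier results of these data known.

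Levels are the authors' RPKM. Tests used edgeR 4.0.16 (R 4.3.3) on the counts: rows with at least 1 read in the 6 libraries compared, TMM factors, glmQLFit and glmQLFTest, Benjamini-Hochberg adjustment, calls at 0.001, as in the study, which compared pairs of groups. SE is the log2 fold change divided by the root of F. The organ interactions used 12 libraries. Ratios were tested by exact two-sided permutation (SciPy 1.17.1). On simulated counts for the 19446 rows of the brain translatome against transcriptome comparison, 90 of 100 genes changed 2-fold and 98 of 100 changed 4-fold were found, with 1 false call. For the 19006 rows of the Emx1-lineage against brain translatome comparison these were 85 and 100 of 100, with 1 false call. All rows were simulated with the same small spread between libraries, and only rows above a minimum mean count were changed. The recovery of members with few reads or a wide spread was therefore not measured. Named genes were all members and, from the other lists, up to 3 called genes a direction with the largest change and at least 1 RPKM in a group; Fth1 and Ftl1 were named after their values were seen, and 1 gene of the lists is not reported here.

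Transcriptome and translatome libraries of a number share a tissue pool, per the study's sample table: deviations from the group means correlated by 0.46, 0.383 and 0.623 in brain and by 0.613, 0.547 and 0.559 in kidney. Kidney EC and brain EC libraries of a number also correlated (0.37, 0.201 and 0.18). Alternatives were RLE factors, read totals without globin rows, at least 10 reads in 3 libraries, DESeq2 1.42.0, 1 fit of all 21 libraries, the replicate number as a block, limma 3.58.1 on log2(RPKM + 1) or log2(RPKM + 0.1), leaving out each library, and the libraries of a shared sequencing lane, as the study's sample table names it. The ratios of Alas2 and Slc4a1 to Hbb-y, the organ interaction of EC libraries and the iron-responsive element list were added after seeing the data. Promoters are RefSeq's and transcripts GENCODE's, both on GRCm38. Within a group the pools were separate, and p-values measure the spread between libraries. The main translatome against transcriptome fits and their organ interaction treated libraries of a shared pool as independent. Their p-values do not measure the spread of the differences within pools.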

Additional observations from a re-analysis of the deposited data

Results flagged for a closer look

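For Epor, the difference between EC and Sox2Cre translatome libraries went opposite ways in the 2 organs. The log2 effect in kidney minus that in brain was -3.38 (SE 0.34, adjusted p = 3.8e-07, edgeR quasi-likelihood test of the interaction over 12 libraries). All 3 brain EC libraries (2.66 to 5.23 RPKM) were above all 3 brain translatome libraries (0.814 to 1.34 RPKM), and all 3 kidney EC libraries (1.09 to 1.70 RPKM) were below all 3 kidney translatome libraries (4.33 to 4.87 RPKM). EC and translatome libraries were sequenced in different lanes, and lane and group cannot be told apart.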

How the results depend on the processing

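Over all alternatives, 896 member fold changes kept direction and side of the threshold, 42 lost the call, 21 gained one and 58 changed sign. Of the counts of calls 582 stayed within 1.5 times and 58 did not, and 275 of the ratios moved by less than the spread between libraries. Members with few reads (Gata1, Klf1, Hbb-bh1, Slc4a1 on ribosomes) limit what the depth can show. The causes of the differences below were not tested, except where fewer libraries or rows entered the fit.

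With the replicate number as a block, which stands for the shared pool in the translatome against transcriptome comparisons, 5 members were called lower in brain in place of 3. Some p-values of these fits were too small for so few pools, and their calls are given as descriptions. In kidney 14 other erythroid genes were called higher in place of 7 and 27 lower in place of 15, with 9496 rows called in place of 5929. For the organ difference 2 members were called lower in place of 0, 7 other erythroid genes higher and 5 lower in place of 2 each, with 3445 rows in place of 1301, and Hbb-bh1 stood at -0.0233. The block in kidney EC against brain EC turned Klf1 to -0.0193. Beside those given in the report, it changed no other call of a member where the numbers pair the libraries. Where they share only a number, it added the call of Slc4a1 in brain EC against the brain translatome (1.73, adjusted p = 0.00029).

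Within the shared lane in kidney, 2 members were called lower in place of 4, 4 other erythroid genes in place of 15 and 3736 rows in place of 5929, and Klf1 stood at -0.5462.

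With limma on log2(RPKM + 1) or log2(RPKM + 0.1), no member (0) was called in the Emx1-lineage in place of 1, 2 other erythroid genes were called higher in place of 4, and 2021 and 2286 rows in place of 4191. In brain EC against the brain translatome 0 and 1 members were called higher in place of 2, in kidney EC against brain EC 1 lower in place of 3, and in kidney EC against the kidney translatome 15 other erythroid genes lower in place of 8. With a pseudocount of 1, 7 other erythroid genes in place of 12 were called higher in brain translatome against transcriptome and 9 in place of 15 lower in kidney, and Hba-x in brain (adjusted p = 0.0011) and Hbb-y in kidney (adjusted p = 0.0033) lost their calls. Under limma Klf1 in kidney translatome against transcriptome stood at -0.0008 and -0.0105, Hbb-y in the Emx1-lineage at -0.0112 and -0.0117, Slc4a1 there at -0.0068 and -0.0081, Hbb-bh1 in brain EC at -0.0577 and -0.1254, and Klf1 in kidney EC against brain EC, with the smaller pseudocount, at -0.0741.

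With read totals without globin rows in place of TMM, 1 member was called higher in brain EC in place of 2. In kidney EC against brain EC 1 was called higher in place of 0 (Slc4a1), and in kidney EC 17 other erythroid genes were called lower in place of 8. Slc4a1 in the Emx1-lineage stood at -0.035 and Hbb-bh1 in brain EC at -0.1341. The share of all calls that were higher went from 53.7% to 36.1% in brain EC and from 52.7% to 21.7% in kidney EC against the translatomes, from 50.7% to 38.9% in brain EC against the Emx1-lineage, and from 41.7% to 29.9% in the Emx1-lineage.

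With at least 10 reads in 3 libraries, 1 member was called higher in brain EC in place of 2 and 1 lower in kidney EC against brain EC in place of 3, 2 other erythroid genes higher in the Emx1-lineage in place of 4, and Slc4a1 there stood at -0.0026. With DESeq2, Slc4a1 stood at -0.03 in the Emx1-lineage and was called higher in kidney EC against brain EC (1 member in place of 0) and in kidney against brain transcriptome (2 members in place of 1). With 1 fit of all 21 libraries, 1 member was called lower in kidney EC in place of 3 and 0 in brain EC against the Emx1-lineage in place of 1, and in kidney EC against brain EC Alas2 stood at -0.0957 and Klf1 at -0.0261. The share of embryonic among all beta globins, computed from reads in place of RPKM, differed by 0.0106 in brain and 0.0089 in kidney translatome against transcriptome, by 0.0026 in the Emx1-lineage, by -0.0052 in kidney EC and by -0.0023 in brain EC against the Emx1-lineage.

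Leaving out 1 library at a time gave 0 to 2 members called lower and 2 to 4 other erythroid genes higher in the Emx1-lineage, 1 to 3 members higher in brain EC, 4 to 7 other erythroid genes lower in kidney EC, 0 to 1 members higher and 1 to 3 lower in kidney EC against brain EC, 1 to 2 members higher in kidney against brain transcriptome, and for the organ difference 1 to 2 other erythroid genes higher and 850 to 1248 rows. The fold changes that changed sign were all uncalled. Klf1 ranged from -0.5665 to 0.5375 in kidney translatome against transcriptome. In the Emx1-lineage Hbb-y ranged from -0.4482 to 0.4251, Hbb-bh1 from -0.0849 to 0.6701, Hba-x from -0.212 to 0.2382 and Slc4a1 from -0.4664 to 0.4728. In brain EC Hbb-y ranged from -0.3479 to 0.2302 and Hbb-bh1 from -0.0502 to 0.4783, and in kidney EC Hbb-bh1 from -0.8096 to 0.5143. In brain EC against the Emx1-lineage Hbb-y ranged from -0.4435 to 0.2961 and Hbb-bh1 from -0.5335 to 0.2402. In kidney EC against brain EC Alas2 ranged from -0.0968 to 0.1823 and Klf1 from -0.7569 to 0.4438. In kidney against brain transcriptome Hbb-bh1 ranged from -0.5549 to 0.3511 and Hba-x from -0.0345 to 0.4237. For the organ difference Hbb-bh1 ranged from -0.9234 to 0.6738, Alas2 from -0.1049 to 0.4298, Klf1 from -0.9295 to 0.1799, Gata1 from -1.4207 to 0.0117 and Epor from -0.3064 to 0.136.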
